A study of Homo sapiens with 4 samples.

Results

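Kallikrein-related peptidases KLK5 to KLK14 are 10 secreted serine proteases whose genes lie side by side on human chromosome 19, and their transcripts were followed in Ca9-22 cells, a gingival squamous cell carcinoma line, with and without knockdown of KPNA4. The genes were selected on measured values, because several of them were among the largest rises between the control and the knockdown arrays in an earlier look at these data, so their differences between the groups are given as a description without a test. All 10 genes have a probe on the array, 12 probes in all, and 9 of the 10 passed the filter on dim probes, out of 19540 genes that did so.

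KPNA4 encodes importin alpha 3, an adaptor that carries proteins with a nuclear localization signal into the nucleus. The samples were 2 negative control cultures and 2 cultures with KPNA4 knockdown. The labels give transfection with siRNA, harvest 3 days later and growth in DMEM with serum and antibiotics, and they name no further allele or agent. The paper instead describes Ca9-22 cells with an shRNA against KPNA4 for the array data, and which of the methods made these samples was not settled here. Total RNA of each sample was labeled with Cy3 and hybridized to 1 Agilent whole human genome array. The labels number the 2 samples of a group as replicates, but do not say whether these came from separate transfections, so the p-values given for other genes measure the spread between these samples, which may be technical.

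Kallikrein-related peptidases are made as inactive precursors, secreted, and switched on by removal of a short propeptide, often by another member of the family. In stratified epithelium KLK5, KLK7 and KLK14 cut the corneodesmosomes that hold the outermost cells together, which lets them shed, and the inhibitor LEKTI, the product of SPINK5, holds this activity back. Most of the family cut after basic residues as trypsin does, while KLK7 and KLK9 cut after bulky residues as chymotrypsin does.

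The bases upstream of the start site are shown for KLK5, KLK6 and KLK9, the 3 genes whose signal was well above background on all 4 arrays and for which RefSeq gives a single start. Each run covers 250 bases before the start, from the RefSeq table for GRCh38.p14, and all lie on the minus strand: KLK5 at chr19:50953039-50953288, KLK6 at chr19:50969592-50969841 and KLK9 at chr19:51009593-51009842. Capitals mark matches to the GC box (GGGCGG on either strand) and to the NF-kB consensus, and the KLK5 run holds neither.
KLK5: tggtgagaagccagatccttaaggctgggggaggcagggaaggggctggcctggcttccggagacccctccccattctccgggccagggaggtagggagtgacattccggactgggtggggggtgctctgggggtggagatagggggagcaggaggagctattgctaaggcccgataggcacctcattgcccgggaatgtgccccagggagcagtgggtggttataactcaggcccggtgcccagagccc
KLK6: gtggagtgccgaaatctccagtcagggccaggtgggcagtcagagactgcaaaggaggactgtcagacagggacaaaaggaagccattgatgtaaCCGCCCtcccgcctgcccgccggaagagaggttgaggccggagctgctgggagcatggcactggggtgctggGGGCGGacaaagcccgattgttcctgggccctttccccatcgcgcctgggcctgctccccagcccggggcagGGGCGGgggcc
KLK9: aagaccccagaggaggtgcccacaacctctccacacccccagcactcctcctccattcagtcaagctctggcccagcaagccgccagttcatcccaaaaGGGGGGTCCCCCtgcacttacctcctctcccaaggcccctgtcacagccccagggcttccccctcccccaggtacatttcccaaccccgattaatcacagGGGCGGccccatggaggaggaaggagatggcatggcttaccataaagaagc

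RefSeq windows, each with 250 bases before and 50 after a start, were at hand for 9 of the 10 genes, all but KLK8, and these genes had 16 windows because some have several starts whose windows overlap. A GC box was found in 10 of the 16 windows, from 6 genes, against 45.0% of all 35116 windows. KLK6 had 3 such matches, which began 155, 83 and 11 bases before the start. The NF-kB consensus matched 5 windows of 3 genes, KLK7, KLK9 and KLK10, against 11.3% of all windows. Overlapping windows can hold the same site, so these are not counts of separate sites. An NF-kB match was shared between windows of KLK7 and of KLK10, and GC boxes between windows of KLK7, KLK13 and KLK14. In KLK9 the NF-kB matches ran into each other on both strands from 151 bases before the start. Neither TATAAA (11.5% of all windows), TGANTCA, the AP-1 site (7.71%), nor AGAACA, a steroid receptor half-site (14.8%), matched any of the 16 windows on either strand. The median GC content was 61.8% in these windows and 58.7% in all windows, while the median ratio of observed to expected CpG was 0.33 and 0.58. A match is only a match of letters, and the arrays did not measure binding.

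Before the members' values, the state of the arrays is given. All 4 arrays lay on 1 slide, with the arrays of each group next to each other, so that position and group cannot be told apart. The 75th percentile of the processed signal was 1381 to 1466 on the control arrays and 1938 to 2096 on the knockdown arrays, and 70.2% to 71.0% of the probes were well above background. KPNA4 fell, with processed signals of 23849 and 22502 in control and 9937 and 8707 after knockdown (log2 difference -1.82, limma SE 0.12, adjusted p = 0.00183). RPS4Y1, a Y-linked ribosomal protein gene that has no known part in a KPNA4 knockdown, was dim on both control arrays, with signals of 3.55 and 5.43, and reached 496 and 556 on the knockdown arrays, at least 43.4-fold higher. It was already known to differ between these groups and passed the filter only through the knockdown arrays, so no test is given. A difference in the cells between the groups other than KPNA4 and the effect of the knockdown itself cannot be told apart in the values that follow, since every array of a group carries the same state of RPS4Y1.

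Markers of squamous epithelium were present, and all 8 passed the filter. Of these, 6 were higher and 1 lower after knockdown in limma, which over all tested genes called 20.3% higher and 29.5% lower. That share applies to the calls of each marker list here. The summed level of the 8 markers relative to the 75th percentile was 56.6 to 57.5 on the control arrays and 50.8 to 51.4 on the knockdown arrays. On the control arrays most of that sum was ITGB4, an integrin of basal cells and the 1 that was lower. The other 7 summed to 11.5 to 12.0 on the control arrays and to 30.3 to 31.2 on the knockdown arrays, where they made up most of the sum. Fibroblast markers summed to 0.135 to 0.140 and 0.328 to 0.344, with 3 of 4 tested genes higher and COL3A1 dim on all arrays. Leukocyte markers summed to 4.14 to 4.20 and 5.84 to 6.18, almost all of it CD14, without which they summed to 0.0497 to 0.0535 and 0.0287 to 0.0310, with 1 of 3 tested genes higher and 2 lower. Endothelial markers summed to 0.0873 to 0.0934 and 0.0622 to 0.0656, with both tested genes lower and PECAM1 dim on all arrays. Melanocyte markers summed to 0.156 to 0.171 and 0.170 to 0.176, or to 0.0772 to 0.0802 and 0.0595 to 0.0598 without PMEL, with 1 of 3 tested genes higher and 1 lower and TYR dim on all arrays. The part of these cell types in the kallikrein values was not tested. In bulk RNA, fewer cells with a transcript and less transcript per cell cannot be told apart.

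After KPNA4 knockdown, 9 of the 10 kallikrein genes, all but KLK14, were at least 2-fold higher with both knockdown arrays above both control arrays, a pattern found in 5.40% of all tested genes. Because the genes were chosen for this contrast, the count is a description. The same 9 were also at least 4-fold higher on the fitted means, as were 1.91% of all tested genes. Of the 9, KLK5, KLK6 and KLK9 were well above background on all 4 arrays, and the other 6 were well above background only on the 2 knockdown arrays. For those 6 the change has only a lower limit, which sets the knockdown mean against the dimmest signal called well above background on each control array. Such a limit holds for the processed signal and not for other background corrections. The median log2 difference of the 10 genes was 5.05, or 3.90 with those 6 at their lower limit, and that of all tested genes was -0.10.

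KLK5, the trypsin-like protease placed at the head of the epidermal cascade, had processed signals of 31.4 and 37.8 on the control arrays and of 10322 and 11401 on the knockdown arrays. On the log2 scale, with the 75th percentile of the array at 0, its values were -5.55 and -5.19 in control (SD 0.25, n = 2) and 2.41 and 2.44 after knockdown (SD 0.022, n = 2). The groups did not overlap, with the knockdown arrays the higher ones. The log2 difference was 7.80 (SE 0.18), or 222-fold. Here and for KLK6 and KLK9 the SE comes from the spread of the 2 arrays per group, and not from limma. Among the 18503 genes that were bright enough on every array to pass the background criterion, KLK5 had the highest difference of all.

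KLK14 encodes the other strong trypsin-like protease of the epidermal cascade. Its signals were 7.61 and 4.27 in control and 3.94 and 7.48 after knockdown, not well above background on any array, and the groups overlapped. It did not pass the filter and was not tested, and no change in either direction can be read from this probe. KLK7, the chymotrypsin-like protease that acts downstream of KLK5, had signals of 2.04 and 2.08 in control and 105 and 116 after knockdown, at least 9.08-fold higher. It was dim on both control arrays, and the SD between the knockdown arrays was 0.023 on the log2 scale (n = 2).

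KLK8, also called neuropsin and known from hippocampus as well as skin, had the highest lower limit of the 6. Its signals were 2.03 and 4.24 on the control arrays, where it was dim, and 2378 and 2296 on the knockdown arrays. On the processed signal the rise was at least 193-fold, and the SD between the knockdown arrays was 0.12 (log2, n = 2). KLK11, a trypsin-like member also called hippostasin, followed with signals of 2.14 and 2.29 in control and 606 and 683 after knockdown, at least 53.1-fold higher. It is the only one of the 10 genes with many spots of 1 probe. On the first control array 9 spots without an outlier flag ran from 1.76 to 4.28 and on the second 9 ran from 1.76 to 4.51, and none was well above background. On the first knockdown array 10 spots ran from 559 to 643 and on the second 10 ran from 649 to 711, all well above background, with coefficients of variation of 4.27% and 2.65%. The spots of a knockdown array therefore lay much closer to each other than to any spot of a control array.

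**Figure D1:**
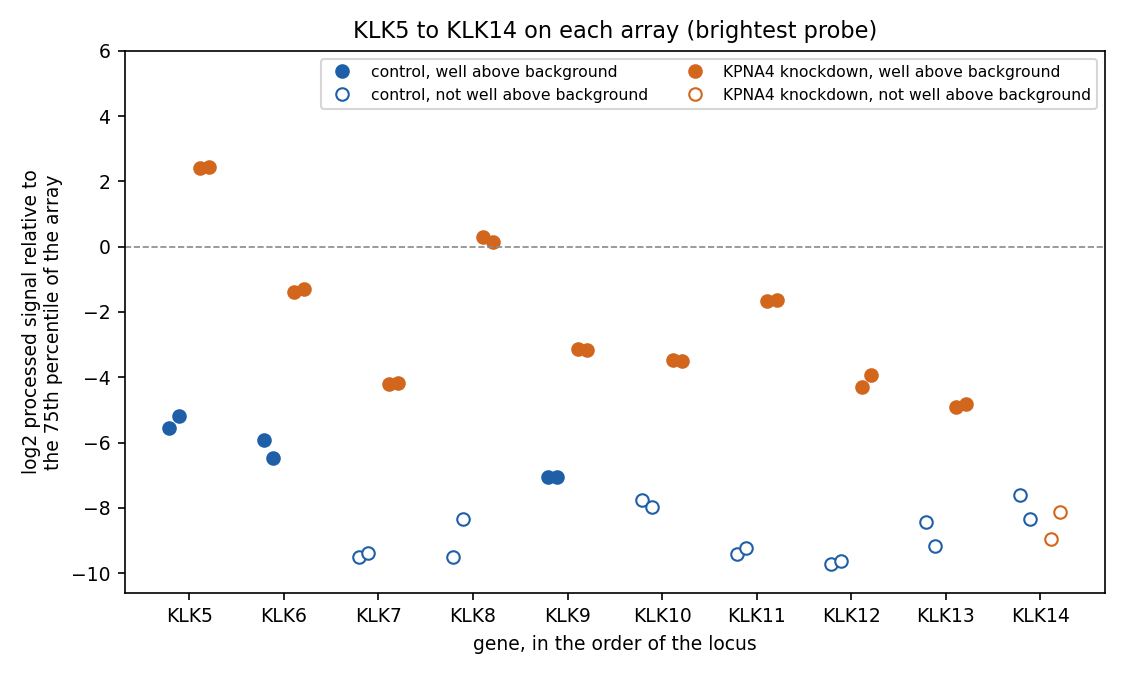
Log2 processed signal relative to the 75th percentile of the array (vertical axis) for the brightest probe of each gene in locus order (horizontal axis), with 1 point for each of the 4 arrays, control in blue and KPNA4 knockdown in orange. Filled points were well above background and open points were not. Levels are not comparable between genes because each gene has its own probe. All 9 genes other than KLK14 have both knockdown points above both control points, and KLK14 is open on all 4 arrays.

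KLK6, a trypsin-like protease studied in brain and in carcinomas, was read by 2 probes. The brighter one had signals of 24.3 and 15.5 in control and 747 and 861 after knockdown, and log2 values of -5.92 and -6.48 against -1.38 and -1.28. The groups did not overlap, and the log2 difference was 4.87 (SE 0.29), or 29.2-fold, the 10th highest among the 18503 genes. The dimmer probe went from 3.80 and 3.52, not well above background, to 54.3 and 66.1, at least 4.95-fold higher. Both probes rose, and a lower limit does not tell whether the sizes of their rises differed.

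KLK9, the less studied chymotrypsin-like member, had signals of 11.0 and 10.4 in control and 223 and 232 after knockdown. Its control arrays almost coincided, at -7.06 and -7.05 on the log2 scale, and the knockdown arrays stood at -3.12 and -3.18. The log2 difference was 3.91 (SE 0.027), or 15.0-fold, the 21st highest among the 18503 genes. The control values lay near the dimmest ones called well above background on those arrays, -7.42 and -7.34. The SE covers only the spread between arrays, and with normexp the log2 difference of KLK9 was 2.37. KLK10, which lacks clear protease activity toward usual substrates and was first described as a gene silenced in breast carcinoma, went from 6.84 and 5.52, dim on both control arrays, to 174 and 185, at least 14.8-fold higher.

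KLK12, a trypsin-like member, had signals of 1.74 and 1.74 in control and 99.6 and 136 after knockdown, at least 9.62-fold higher. Of the 9 genes that were higher it had the widest gap between the knockdown arrays, 0.34 on the log2 scale. KLK13, a trypsin-like protease known from esophagus and oral mucosa, was read by 2 probes. The brighter went from 4.23 and 2.38 to 64.0 and 74.6, at least 5.70-fold higher, and the dimmer from 1.98 and 3.48 to 17.5 and 18.1, at least 1.47-fold higher. Both KLK13 probes were dim on the control arrays and well above background on the knockdown arrays.

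The size of these differences depended on the background correction. With normexp in place of the processed signal, the log2 differences of the 9 genes fell to between 1.80 for KLK13 and 5.89 for KLK5. They were still at least 2-fold with no overlap in all 9. In the 6 genes with a lower limit, the normexp difference fell below that limit. For KLK8 it was 4.49 against a limit of 7.59, and for KLK11 3.30 against 5.73 (log2). KLK14, dim on all 4 arrays, moved from -0.57 to 1.38 under normexp. A rise near that size under normexp therefore need not come from a detected transcript. Without scaling between arrays KLK5 reached 8.30. With the first or second array of either group left out the count stayed at 9, and with probes required to be well above background on all 4 arrays only KLK5, KLK6 and KLK9 could be counted.

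**Figure D2:**
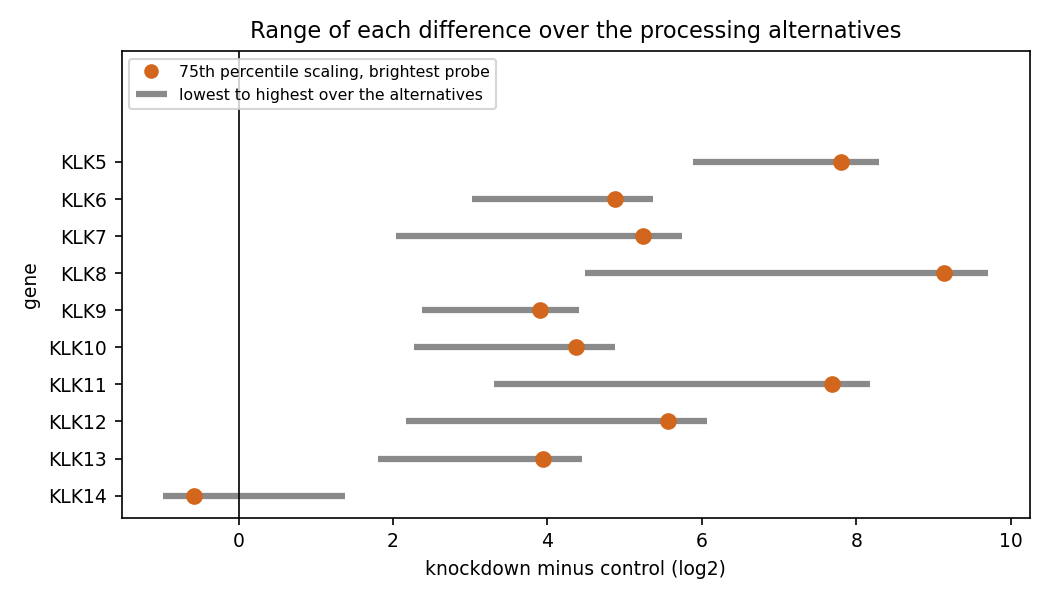
Difference between the knockdown and control means (horizontal axis, log2) for each gene (vertical axis), with the value under 75th percentile scaling as an orange point and the lowest to the highest value over the processing alternatives as a gray bar. The bars of KLK5 to KLK13 lie above 0, with their low ends from normexp background correction, and the bar of KLK14 crosses 0.

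The 2 named genes whose centered profiles over the 4 arrays lay nearest were found for KLK5, KLK6 and KLK9 by Euclidean distance on the log2 scale. For KLK5 they were KLK11, at a distance of 0.17, and RPS4Y2, at 0.44, a Y-linked gene whose probe may also bind the RPS4Y1 transcript. Both were dim on the control arrays, so their differences have only lower limits (5.73 and 5.14 on the log2 scale) and these distances, and their being nearest, rest on signals below background. For KLK6 they were BMP5, at 0.29, which encodes a bone morphogenetic protein, and SCEL, at 0.35, which encodes the envelope precursor sciellin. For KLK9 they were KRT4, at 0.11, the keratin of mucosal suprabasal cells, and BBOX1, at 0.16, an enzyme of carnitine synthesis. With 2 groups of 2 arrays such a distance mostly reads the size of the difference between the groups.

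Outside the group of 10 genes, the next kallikrein on the side of KLK5 is KLK4, a trypsin-like protease of enamel and prostate, and it also rose. KLK4 had signals of 6.58 and 8.16 on the control arrays, where it was dim, and 67.8 and 70.4 on the knockdown arrays, at least 5.70-fold higher. It passed the filter only through the knockdown arrays, and its limma call, counted with the pathway lists below, rests on control signals below background. No p is therefore given for KLK4. Of the kallikreins beyond KLK4 only KLK2 and KLK1 were tested, and neither passed. KLK2, a prostate protease, had log2 values of -4.70 and -4.92 in control and -5.23 and -5.02 after knockdown (difference -0.31, limma SE 0.12, adjusted p = 0.0967), and its other probe was dim on all arrays. KLK1, tissue kallikrein, had values of -3.41 and -3.35 against -3.39 and -3.43 (difference -0.028, limma SE 0.060, adjusted p = 0.716). KLK3, which encodes prostate-specific antigen, was dim on all 4 arrays, and KLK15 was well above background only on the first knockdown array, so neither was tested. The pseudogene KLKP1, named here after its values were seen, was also dim on all 4 arrays.

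Of the 5 nearest genes with a probe on either side of the cluster, 5 of 10 passed the filter and none of those changed by 2-fold. Beyond KLK1, CLEC11A, a secreted growth factor of bone and blood, was higher by 0.55 (log2, limma SE 0.073, adjusted p = 0.00795), and ACP4, a testicular and dental acid phosphatase, was lower by a difference of -0.38 (limma SE 0.071, adjusted p = 0.0171). GPR32 and TMEM277P did not pass the test, and SHANK1 was not tested. Beyond KLK14, CTU1, which modifies transfer RNA, was lower by a difference of -0.30 (limma SE 0.057, adjusted p = 0.0176), while SIGLEC9, SIGLEC7, CD33 and SIGLECL1, which are leukocyte genes or their relatives, did not pass the filter. Without scaling between arrays ACP4 and CTU1 had differences of 0.12 and 0.20, and with normexp ACP4 had one of 0.96, so their direction turned.

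**Figure D3:**
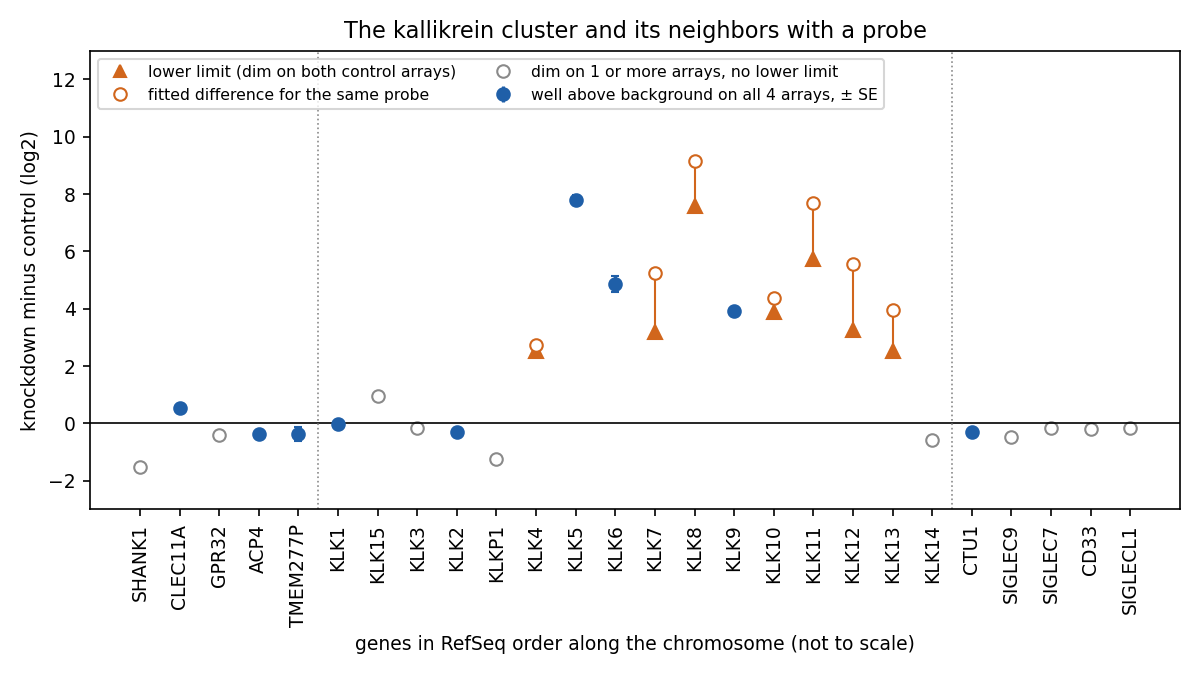
Difference between the knockdown and control means (vertical axis, log2) for the genes of the kallikrein cluster, between the dotted lines, and the 5 nearest genes with a probe on each side, in RefSeq order and not to scale. Blue points with error bars (standard error from the spread of 2 arrays per group) were well above background on all 4 arrays, orange triangles are lower limits with the fitted difference of the same probe as an open orange point, and open gray points were dim on 1 or more arrays and have no limit. KLK4 to KLK13 lie above 2, while KLK1, KLK2, KLK14 and the neighbors lie below 1.

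The other genes of the kallikrein pathway were followed in 6 lists of 65 genes, of which 49 were tested. At an adjusted p under 0.05 limma called 20 of them higher and 12 lower, that is 40.8% and 24.5%, against 20.3% and 29.5% of all tested genes. Their median log2 difference was 0.14, against -0.10 for all tested genes. Of the 20 that rose, 7 were also at least 2-fold higher, as were 1032 of the 3974 that rose among all tested genes. The 7 include KLK4, whose call rests on control signals below background.

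Among 13 inhibitors 8 were tested, with 4 higher and 1 lower and a median difference of 0.20. SLPI, the secretory leukocyte protease inhibitor of mucosa, had log2 values of -3.45 and -3.50 in control and -0.15 and -0.17 after knockdown (difference 3.32, limma SE 0.059, adjusted p = 0.000298). SERPINA1, alpha-1 antitrypsin, rose by 1.79 (limma SE 0.089, adjusted p = 0.00108), and PI3, elafin, by 0.65 (limma SE 0.065, adjusted p = 0.00421). These 3 are known mainly as inhibitors of neutrophil elastase. SPINK5, the gene of the kallikrein inhibitor LEKTI, named here after its values were seen, had log2 values of -1.95 and -2.20 in control and -1.96 and -1.92 after knockdown, and the groups overlapped (difference 0.14, limma SE 0.10, adjusted p = 0.322). Its other 2 probes had differences of 0.46 and 0.29 without overlap between the groups, so the probes of SPINK5 were not alike. The close relatives SPINK6 and SPINK9 did not pass the filter.

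Among 11 proteases that activate kallikreins and the inhibitors of those proteases, 7 were tested, with 1 higher, none lower and a median difference of 0.0034. The 1 gene was PRSS8, which encodes prostasin, a membrane-anchored protease of epithelium. Its log2 values were 2.27 and 2.13 in control and 3.03 and 2.99 after knockdown (difference 0.81, limma SE 0.074, adjusted p = 0.00351).

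Among 16 substrates 14 were tested, with 6 higher and 5 lower and a median difference of 0.095. F2R, the thrombin receptor PAR1, had log2 values of -6.91 and -6.60 in control and -4.72 and -4.93 after knockdown (difference 1.93, limma SE 0.14, adjusted p = 0.00223). DSG3, the desmosomal cadherin of basal layers, rose by 1.73 (limma SE 0.088, adjusted p = 0.00114). IL1B, the precursor of interleukin-1 beta, had values of 5.15 and 5.19 in control and 3.89 and 3.79 after knockdown, a difference of -1.33 (limma SE 0.067, adjusted p = 0.00113).

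Among 10 cathepsins, cystatins and other proteases of desquamation 9 were tested, with 4 higher and 4 lower, all by less than 2-fold. ASPRV1, a retroviral-like protease that processes filaggrin, rose by 0.69 (limma SE 0.058, adjusted p = 0.00296). CSTA, the cysteine protease inhibitor cystatin A, fell with a difference of -0.63 (limma SE 0.061, adjusted p = 0.00409). The lysosomal protease gene CTSB fell with a difference of -0.46 (limma SE 0.086, adjusted p = 0.0171), but had a difference of 0.041 without scaling between arrays.

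Among 10 nuclear receptors reported to act on kallikrein genes 8 were tested, with 4 higher and 2 lower and a median difference of 0.47. RARG, the retinoic acid receptor of skin, had log2 values of -0.23 and -0.011 in control and 0.98 and 1.06 after knockdown (difference 1.14, limma SE 0.098, adjusted p = 0.00308). VDR, the vitamin D receptor, had values of 1.03 and 0.98 against 0.12 and 0.11 (difference -0.89, limma SE 0.058, adjusted p = 0.00182). ESR1, estrogen receptor alpha, rose by 0.65 at its brightest probe (limma SE 0.065, adjusted p = 0.00433), while its other 2 probes had differences of -0.50 and -0.091 with overlapping groups. PGR, the progesterone receptor, did not pass the filter.

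The calls in these lists rest on few arrays. With normexp background correction limma called none of the 49 genes at an adjusted p under 0.05, with 5 higher and 4 lower at an unadjusted p under 0.05, and without knockdown replicate 2 the count of lower genes went from 12 to 6. Without scaling between arrays 29 were higher and 3 lower.

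**Figure D4:**
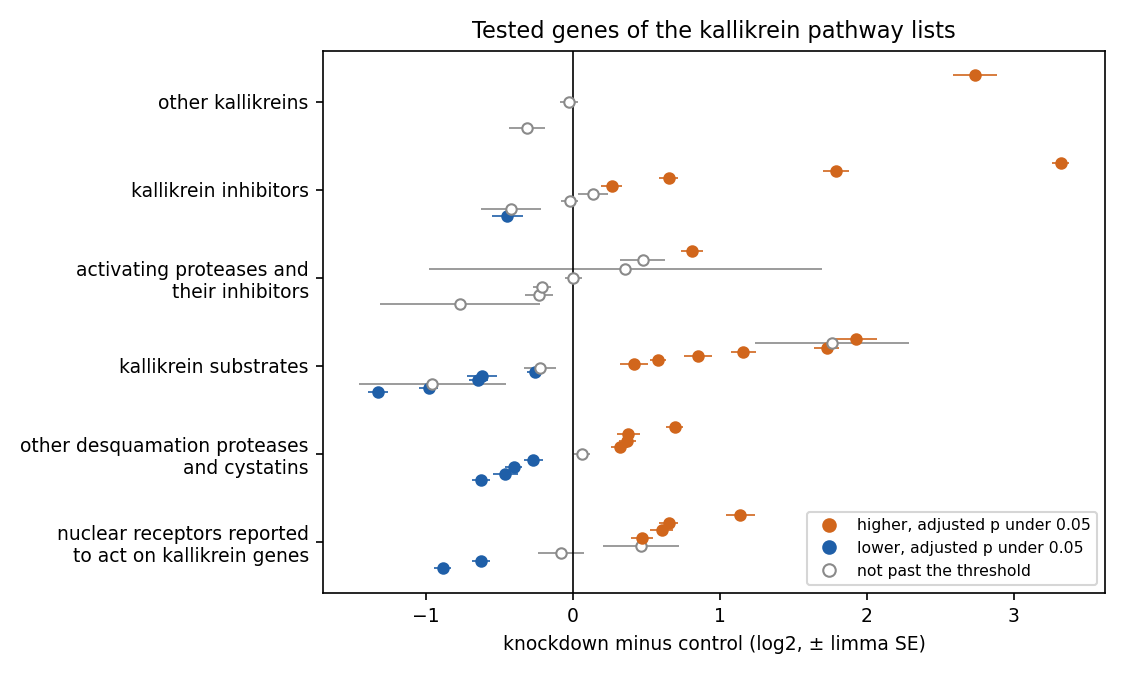
Difference between the knockdown and control means (horizontal axis, log2, error bars are the limma standard error, 2 arrays per group) for the 49 tested genes, in 6 lists (vertical axis, spread within a list by size). Orange points were higher and blue points lower at a limma adjusted p under 0.05, and open gray points did not pass. The points furthest to the right are SLPI at 3.32 and KLK4, whose fitted difference of 2.73 has a lower limit of 2.51 because it was dim on the control arrays, and the one furthest to the left is IL1B at -1.33.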

How the data were processed

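Gene expression was measured in 2 control and 2 KPNA4 knockdown samples of Ca9-22 cells on Agilent 1-color arrays, and groups follow the labels. The authors scanned the slide and used Agilent Feature Extraction 11.0.1.1, which subtracts background and spatial trends, to make the deposited processed signal intensity of each spot. A second deposited file holds this signal as a ratio to the 75th percentile of each array.

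Here the gene spots were used without those flagged as outliers (333 to 355 of 43118 per array). Replicate spots were averaged per probe on the log2 scale, from which the 75th percentile of the array was taken off. No gene spot was saturated. Probes were named through transcript accessions in a RefSeq table (25771 of 34127 probes). From it only names and gene order were used, since the array grid refers to another assembly, and promoter windows came from a separate RefSeq table on GRCh38.p14. A gene was tested if 1 of its probes stood well above background on the 2 arrays of either group (19540 genes, brightest such probe), with limma 3.58.1 in R 4.3.3 and Benjamini-Hochberg adjustment over all of them, after a test on simulated data.

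The members and gene lists were chosen with earlier results of these data known. Besides the members, the text names KPNA4, RPS4Y1, the other kallikreins, 5 neighbors on each side with a probe, the 3 largest called differences per list and the 2 nearest profiles. Some genes of the lists are counted but not reported by name here. The alternatives were quantile, median and no scaling, normexp (offset 50), the deposited table, other dim-probe filters, averaging over probes, flagged spots kept, limma's trend and robust options, a replicate block, each array left out and other thresholds. Precision is limited by the number of arrays, 2 in each group, and no read depth applies.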

Additional observations from a re-analysis of the deposited data

How the results depend on the processing

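The count of 9 kallikrein genes at least 2-fold higher was the same under every alternative that was run except the filter for probes well above background on all 4 arrays, which left 3 genes to count, all 3 higher. With normexp background correction limma called none of the 19540 genes in either direction (635 higher and 514 lower at an unadjusted p under 0.05) and none of the 49 pathway genes in either direction, 0 higher and 0 lower. The cause was not tested. Without scaling between arrays 11256 genes were higher and 1046 lower in place of 3974 and 5764, and 3 pathway genes were lower in place of 12. Called genes that turned without scaling included CST6 (0.099), CTSB (0.041), CTSC (0.23), SPINK7 (0.056), ACP4 (0.12) and CTU1 (0.20), and FLG (1.21) and ACP4 (0.96) turned under normexp, all as log2 differences. With a 2-fold change required as well, 7 pathway genes were higher and 1 lower, and 1032 and 630 of all genes.

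When any 1 array was dropped, the lower pathway genes numbered 6 to 13, all higher genes 2152 to 3595 and all lower genes 2524 to 4743, where a group of 1 array is assumed to vary like the other group. Arrays with the same replicate number did not deviate together (correlation of deviations -0.034 across genes), which does not settle whether the samples were paired. With the replicate number as a block 3262 genes were higher and 4637 lower, 19 and 10 of them pathway genes. With 2 arrays per group, 6 of the 9 kallikrein genes have a lower limit in place of a fold. The size of those rises is bounded on 1 side only, and only for the processed signal. Under normexp the differences of all 6 fell below those limits.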
